A study of Homo sapiens with 10 samples.

Results

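Classical cadherins and catenins, the proteins of the adherens junction, were followed in BEAS2B cells, an immortalized line of bronchial epithelium, after transfection of 3 miRNAs alone and together. The members were 10 genes picked by symbol from the 52402 symbols in the count data, 7 cadherins (CDH1, CDH2, CDH3, CDH4, CDH6, CDH11 and CDH13) and 3 catenins (CTNNB1, CTNND1 and CTNNA1). The rule named these symbols and used no threshold on a measured value, although earlier results of these data were known when they were chosen. The groups were miRcontrol (scrambled miRNA), miR3124_mimic (miR-3124-5p mimic), miR200b_mimic (miR-200b-3p mimic) and miR92b_inhibitor (an inhibitor of miR-92b, whose arm the labels do not give), each at 50 nM, and the 3-miRNA mixed group, which received both mimics and the inhibitor in amounts not stated in the sources used here. All cells received the same Lipofectamine reagent, and RNA was taken after 48 h. Each group had 2 libraries of poly(A) mRNA-sequencing, and nothing in the labels says whether they came from separate transfections, so the p-values measure only the spread between libraries.

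Classical cadherins are single-pass adhesion receptors that bind the same cadherin on a neighbouring cell through calcium-dependent extracellular repeats. Their cytoplasmic tail holds p120-catenin (CTNND1) near the membrane and beta-catenin (CTNNB1) further along, and alpha-catenin (CTNNA1) joins beta-catenin to the actin cytoskeleton. Epithelial cells of the airway depend on E-cadherin (CDH1), and the exchange of E-cadherin for N-cadherin (CDH2), known as cadherin switching, is a usual mark of the epithelial to mesenchymal transition. The miR-200 family is known to restrain ZEB1 and ZEB2, zinc finger factors that repress CDH1.

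The mature miRNAs are shown first because their seeds, the bases 2 to 8 that lead target pairing, set which words can be looked for in the members. The sequences are from RefSeq (GRCh38.p14), all 4 lie on the plus strand of chromosome 1, and the seeds are in capitals. Both arms of miR-92b are given, since the arm that the inhibitor addresses was not stated.
hsa-miR-200b-3p (chr1:1167160-1167181): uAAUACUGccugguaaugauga
hsa-miR-3124-5p (chr1:248826383-248826403): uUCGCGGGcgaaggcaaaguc
hsa-miR-92b-5p (chr1:155195196-155195217): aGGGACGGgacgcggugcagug
hsa-miR-92b-3p (chr1:155195237-155195258): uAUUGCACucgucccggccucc
The 4 seeds differ, so none of the miRNAs share a seed. The words complementary to them are CAGTATT for miR-200b-3p, CCCGCGA for miR-3124-5p, CCGTCCC for miR-92b-5p and GTGCAAT for miR-92b-3p, and they were searched on the transcript strand of the 3′UTR of the principal coding transcript in GENCODE v29 (GRCh38). Among 12167 tested genes with such a 3′UTR, 18.0% held the word of miR-200b-3p, 0.6% that of miR-3124-5p, 3.76% that of miR-92b-5p and 11.5% that of miR-92b-3p.

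Some of the members held 1 or more of these words. The word of miR-200b-3p occurred 2 times in CDH6, once in CDH11 and once in CTNND1, and 5 times each in ZEB1 and ZEB2. CDH4 held 1 word of miR-3124-5p and 2 of miR-92b-5p, and ZEB2 held 3 words of miR-92b-3p. The 3′UTRs of CDH6, CDH11, CTNND1 and CDH4 had 5838, 3850, 2870 and 3674 bases, beside a median of 1135 over the genes searched. CDH2, CDH3, CDH13, CTNNB1 and CTNNA1 had no match in a 3′UTR of 1187, 1895, 346, 546 and 945 bases, respectively, which says only that these letters are not in that window. No 2 matches in a 3′UTR overlapped. A choice of the matches in genes whose values are described in the text is printed with the word in capitals, each within a single exon of the 3′UTR. They are letter matches, not shown binding sites.
CTNND1, miR-200b-3p (chr11:57817747-57817776, plus strand): attctcccctccctcCAGTATTgccccctc
CDH11, miR-200b-3p (chr16:64946891-64946920, minus strand): tatacgtataaatatCAGTATTctgacatg
ZEB1, miR-200b-3p (chr10:31528492-31528521, plus strand): ctgatttttacctatCAGTATTattttatt
ZEB2, miR-200b-3p (chr2:144388408-144388437, minus strand): tcatactgtagtgtaCAGTATTatagttct
CDH4, miR-3124-5p (chr20:61937861-61937890, plus strand): ggtgccatcaacggcCCCGCGAcaggcatc
CDH4, miR-92b-5p (chr20:61937314-61937343, plus strand): tctaaagcagacagaCCGTCCCcaccttcc

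The libraries held 13587666 to 18503890 counts, and levels are given as normalized CPM, counts scaled to a common library size after edgeR's RLE scaling, whose factors lay between 0.985 and 1.016. The libraries of a group differed by more than counting error in all groups (chi-square over degrees of freedom from 1.77 to 2.70 over genes), so they were kept as 2 samples. The epithelial label was only partly met by marker genes: of 17 epithelial markers, 5 were above 1 CPM in both miRcontrol libraries, led by the keratins KRT8 (814 in each library) and KRT18 (619 and 638), while GRHL2 and ESRP1 had no count there. The epithelial markers summed to 1461 and 1479 CPM in miRcontrol, 2715 and 2755 in miR200b_mimic, 1960 and 1975 in miR3124_mimic, 1472 and 1414 in miR92b_inhibitor, and 2679 and 2671 in the mixed group. The 10 mesenchymal markers, led by VIM and FN1, summed to 7959 and 7933 CPM in miRcontrol, to 5650 and 5559 in miR200b_mimic, 6148 and 5986 in miR3124_mimic, 7599.6 and 7449 in miR92b_inhibitor, and 6016 and 6027 in the mixed group. A few genes make up most of each of these sums. In miR3124_mimic VIM fell to 827 and 799 CPM, from 3894 and 3707 in miRcontrol. Yet 4 of the 6 mesenchymal markers tested were higher in miR3124_mimic and 1 was lower, at an adjusted p under 0.05. Of the 10 epithelial markers tested, 2 were higher and 2 lower in that group. Markers of endothelial, leukocyte and neural cells, 5 genes each, summed to at most 12.8 CPM in any library, that value being the leukocyte list in miR3124_mimic. In such bulk RNA, a change in the share of cells of a type and a change of RNA per cell cannot be told apart.

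CDH1 was close to undetected in miRcontrol and was present in the groups that received the miR-200b-3p mimic. The gene for E-cadherin lies on the plus strand at chr16:68737225-68835548. It had 3 and 2 counts in miRcontrol (0.172 and 0.119 normalized CPM), 146 and 157 in miR200b_mimic (10.9 and 9.03), 3 and 7 in miR3124_mimic (0.205 and 0.396), 1 and 1 in miR92b_inhibitor (0.0584 and 0.0547) and 46 and 36 in the mixed group (2.54 and 1.94). The miR200b_mimic libraries stood highest and the mixed libraries next, and neither overlapped any other group.

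Relative to miRcontrol, the level of CDH1 over both libraries was 67.4 times as high in miR200b_mimic (95% exact binomial interval of the counts 28.6 to 209, adjusted p = 1.91e-18 by the quasi-likelihood test of edgeR, Benjamini-Hochberg adjusted). In the mixed group the ratio was 15.3 (6.30 to 48.4, adjusted p = 3.59e-09). The level in the mixed group was 0.227 times that in miR200b_mimic (0.176 to 0.291, adjusted p = 7.10e-11), which places miR200b_mimic above the mixed group and the mixed group above the rest. Below these, the order was miR3124_mimic, miRcontrol and miR92b_inhibitor, but the neighbours did not differ by the test: the ratio to miRcontrol was 2.12 in miR3124_mimic (0.660 to 7.90, adjusted p = 0.257) and 0.387 in miR92b_inhibitor (0.0368 to 2.36, adjusted p = 0.387). The intervals cover counting error only. CDH1 passed the filter on low counts only through the miR200b_mimic and mixed libraries.

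CDH3, which encodes P-cadherin, the cadherin of basal epithelial cells, followed the same order at the top. It is the neighbour of CDH1, at chr16:68636189-68722616 on the same strand, with 14608 bases and 0 protein-coding genes between them. It measured 1.26 and 1.43 normalized CPM in miRcontrol, 7.55 and 7.08 in miR200b_mimic, 1.71 and 1.75 in miR3124_mimic, 1.28 and 0.821 in miR92b_inhibitor, and 4.48 and 4.14 in the mixed group. Only the miR92b_inhibitor libraries overlapped those of miRcontrol. CDH3 rose by a log2 fold change of 2.43 ± 0.24 (SE, adjusted p = 6.23e-12) in miR200b_mimic and by 1.68 ± 0.25 (adjusted p = 3.30e-07) in the mixed group. The log2 fold changes of 0.36 in miR3124_mimic (adjusted p = 0.336) and -0.36 in miR92b_inhibitor (adjusted p = 0.438) did not pass. The mixed group lay below miR200b_mimic by a log2 difference of -0.76 ± 0.19 (adjusted p = 0.00127).

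CDH2, the N-cadherin gene on the minus strand at chr18:27950966-28177446, stayed within a narrow range while CDH1 moved. It measured 259 and 259 normalized CPM in miRcontrol, 219 and 219 in miR200b_mimic, 244 and 254 in miR3124_mimic, 233 and 224 in miR92b_inhibitor, and 237 and 239.9 in the mixed group. All 8 libraries of the other groups lay below both miRcontrol libraries. The log2 fold change was -0.24 ± 0.04 in miR200b_mimic (adjusted p = 1.34e-06), -0.18 ± 0.04 in miR92b_inhibitor (adjusted p = 0.000183) and -0.12 ± 0.04 in the mixed group (adjusted p = 0.00928). In miR3124_mimic it was -0.06 ± 0.04 (adjusted p = 0.216). The fall in miR200b_mimic corresponds to a change of -15.5% in level. The call in the mixed group was lost without the second miRcontrol library (adjusted p = 0.0501) and without the first mixed library (adjusted p = 0.0759).

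CDH4, which encodes R-cadherin, a relative of N-cadherin, fell in all 4 groups against miRcontrol. The gene (chr20:61252426-61940617, plus strand) was listed in 2 rows, which were summed. It measured 37.1 and 34.8 normalized CPM in miRcontrol, 28.3 and 28.1 in miR200b_mimic, 22.9 and 23.5 in miR3124_mimic, 23.3 and 24.7 in miR92b_inhibitor, and 29.6 and 26.8 in the mixed group, with no library of these groups reaching a miRcontrol library. The log2 fold changes were -0.63 ± 0.08 (adjusted p = 4.82e-09) in miR3124_mimic, -0.35 ± 0.08 (adjusted p = 0.000265) in miR200b_mimic, -0.58 ± 0.08 (adjusted p = 6.32e-08) in miR92b_inhibitor and -0.35 ± 0.08 (adjusted p = 0.000175) in the mixed group. These comparisons share the control libraries. CDH4 is the member whose 3′UTR held words of both miR-3124-5p and miR-92b-5p, and it fell both with the mimic of the former and with the inhibitor of miR-92b. It also fell with the miR-200b-3p mimic, whose word its 3′UTR did not hold. Whether these miRNAs act on CDH4 was not tested.

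The type II cadherins of the list were scarce. CDH6, a cadherin of the developing kidney (chr5:31193750-31329146, plus strand), had 0 to 2 counts in each of the 10 libraries and was not tested. At this depth no difference was detectable, a floor of 3 counts being worth 0.161 to 0.224 normalized CPM. CDH11, the cadherin of mesenchymal and bone-forming cells (chr16:64943753-65126112, minus strand), measured 0.973 and 0.836 CPM in miRcontrol (17 and 14 counts), 0.224 and 0.518 in miR200b_mimic, 0.273 and 0.566 in miR3124_mimic, 0.467 and 0.547 in miR92b_inhibitor, and 0.332 and 0.484 in the mixed group. Each library of the other groups was below both miRcontrol libraries. The log2 fold changes ran from -1.21 ± 0.56 in miR200b_mimic (adjusted p = 0.0794) to -0.82 ± 0.51 in miR92b_inhibitor (adjusted p = 0.220), with -1.06 (adjusted p = 0.0982) in miR3124_mimic and -1.13 (adjusted p = 0.0804) in the mixed group, and none passed. CDH11 was kept by the filter only through the miRcontrol libraries.

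CDH13 encodes T-cadherin, which lacks a cytoplasmic tail, is held by a lipid anchor and binds no catenin. At chr16:82626803-83800640 (plus strand) it is the fourth member on chromosome 16. Its levels were 109 and 105 normalized CPM in miRcontrol, 84.0 and 78.0 in miR200b_mimic, 119.5 and 110.0 in miR3124_mimic, 102 and 96.5 in miR92b_inhibitor, and 109.6 and 113 in the mixed group. The miR200b_mimic libraries were the lowest, and CDH13 fell there by 0.41 ± 0.05 on the log2 scale (adjusted p = 7.81e-09). The other log2 fold changes were 0.10 ± 0.05 in miR3124_mimic (adjusted p = 0.100), -0.11 ± 0.05 in miR92b_inhibitor (adjusted p = 0.0705) and 0.06 ± 0.05 in the mixed group (adjusted p = 0.381). The value in miR3124_mimic passed without the second library of that group (0.16, adjusted p = 0.0335) and with scaling to library totals only (0.12, adjusted p = 0.0302). With the filter set to 10 counts in each library, CDH13 passed both in miR3124_mimic (0.11, adjusted p = 0.0406) and in miR92b_inhibitor (-0.12, adjusted p = 0.04995).

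**Figure D1:**
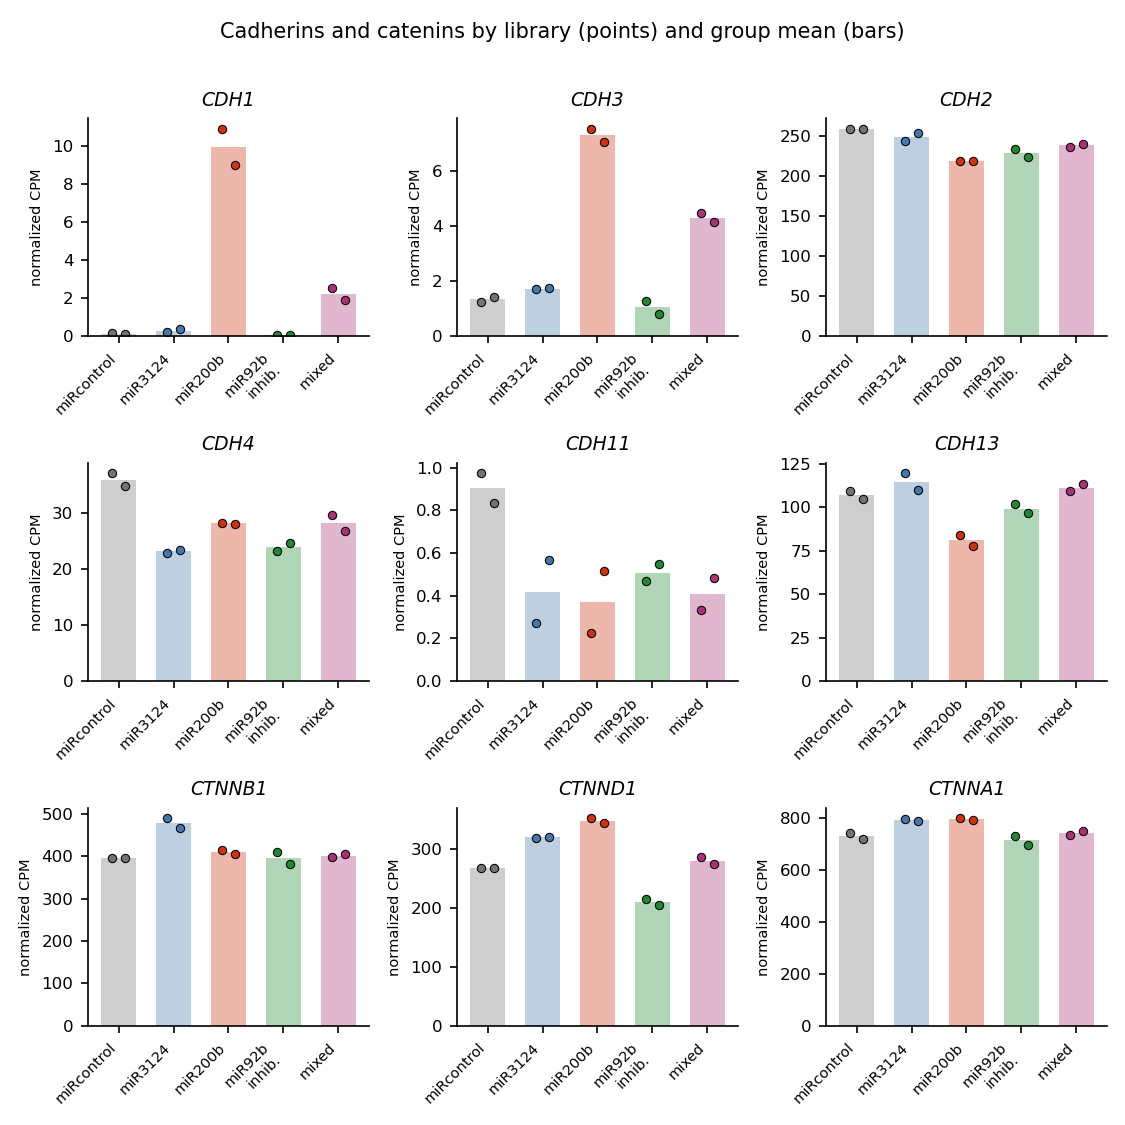
Normalized CPM (vertical axes, starting at 0) of 9 members in the 5 groups, with a point for each library and a bar for the mean of the 2 libraries; CDH6, with 0 to 2 counts per library, is not drawn. CDH1 and CDH3 stand out in miR200b_mimic (10.9 and 9.03 CPM, 7.55 and 7.08 CPM) and are intermediate in the mixed group, while CDH2 stays between 219 and 259 CPM.

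Levels of different cadherins were compared per kilobase, with the length of the union of GENCODE v29 exons, an annotation that may not be the one used for counting. On this scale CDH2 made up 78.0% ± 0.58 (SD, n = 2) of the summed level of the 7 cadherins in miRcontrol, 76.1% ± 0.86 in miR200b_mimic, 78.5% ± 1.11 in miR3124_mimic, 78.9% ± 0.17 in miR92b_inhibitor and 76.4% ± 0.34 in the mixed group. The share of CDH1 was 0.0351% ± 0.0087 in miRcontrol, 2.78% ± 0.34 in miR200b_mimic and 0.575% ± 0.113 in the mixed group. CDH3 added 0.322% in miRcontrol and 2.02% in miR200b_mimic. N-cadherin transcripts thus remained the most abundant of the 7 in every library.

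The ratio of CDH2 to CDH1 per kilobase was 1881 and 2710 in the miRcontrol libraries, 25.0 and 30.3 in miR200b_mimic, 1484 and 799.9 in miR3124_mimic, 4988 and 5104 in miR92b_inhibitor, and 116 and 155 in the mixed group. The low values in miR200b_mimic and the mixed group come with the rise of CDH1, since CDH2 changed by at most -0.24 on the log2 scale. The ratios outside these groups rest on 1 to 7 counts of CDH1. The shares depended on the length used. With the principal coding transcript, which for CDH13 has 2722 bases against 11187 in the exon union, CDH2 made up 56.9% in miRcontrol and CDH13 37.4%, against 14.3% for CDH13 with the exon union. CDH2 led in each library under either length.

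**Figure D2:**
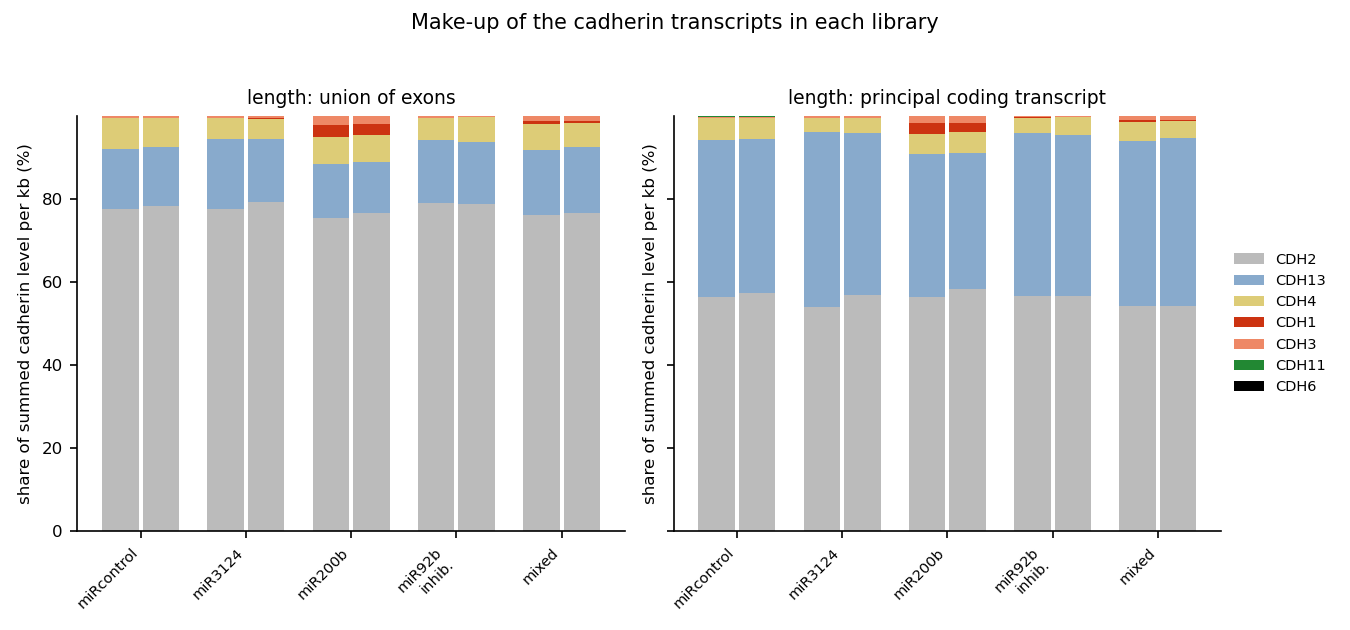
Share of each of the 7 cadherins in their summed level per kilobase (vertical axis, percent), with 1 bar for each library and 2 bars for each group, for lengths from the union of exons (left) and from the principal coding transcript (right). The CDH1 band is visible in miR200b_mimic (2.78% and 2.31% on average under the 2 lengths) and thin in the mixed group, and CDH2 is the largest band in every bar.

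Of the catenins, CTNNB1 encodes beta-catenin, which serves both in the junction and in Wnt signalling. On the plus strand at chr3:41194741-41260096, it measured 395 and 396 normalized CPM in miRcontrol, 415 and 405 in miR200b_mimic, 489.6 and 466 in miR3124_mimic, 409.8 and 381 in miR92b_inhibitor, and 397 and 404 in the mixed group. The miR3124_mimic libraries were the highest of the 10. CTNNB1 rose there by a log2 fold change of 0.27 ± 0.04 (adjusted p = 2.92e-08), a change of 20.8% in level. The intervals of the other log2 fold changes were -0.02 to 0.13 in miR200b_mimic, -0.07 to 0.07 in miR92b_inhibitor and -0.05 to 0.09 in the mixed group (95%), and none passed.

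CTNND1, for p120-catenin, which keeps cadherins at the cell surface, was the catenin that moved in both directions. The gene lies on the plus strand at chr11:57753243-57819546. It measured 267 and 267 normalized CPM in miRcontrol, 352 and 343 in miR200b_mimic, 318 and 320.3 in miR3124_mimic, 214 and 205 in miR92b_inhibitor, and 286 and 274 in the mixed group. Both mimics stood above the control and the inhibitor below it, with no overlap. CTNND1 rose by 0.26 ± 0.04 in miR3124_mimic (adjusted p = 1.35e-07) and by 0.38 ± 0.04 in miR200b_mimic (adjusted p = 1.10e-11), and it fell by 0.35 ± 0.04 in miR92b_inhibitor (adjusted p = 4.91e-10). In the mixed group the value was 0.07 ± 0.04 (adjusted p = 0.164). The 3′UTR of CTNND1 held 1 word of miR-200b-3p, and its level was higher with that mimic. Whether the miRNA acts on CTNND1 was not tested.

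CTNNA1, for alpha-catenin (chr5:138610967-138935034, plus strand), had the highest counts of the members and changed little. It measured 744 and 719 normalized CPM in miRcontrol, 799.9 and 792 in miR200b_mimic, 798 and 787 in miR3124_mimic, 732 and 698 in miR92b_inhibitor, and 736 and 752 in the mixed group. The log2 fold change was 0.12 ± 0.03 both in miR3124_mimic (adjusted p = 0.00402) and in miR200b_mimic (adjusted p = 0.00334). Without the second miRcontrol library these did not pass (adjusted p = 0.0969 and 0.0791). The values in miR92b_inhibitor (-0.03, adjusted p = 0.491) and in the mixed group (0.02, adjusted p = 0.606) did not pass either.

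**Figure D3:**
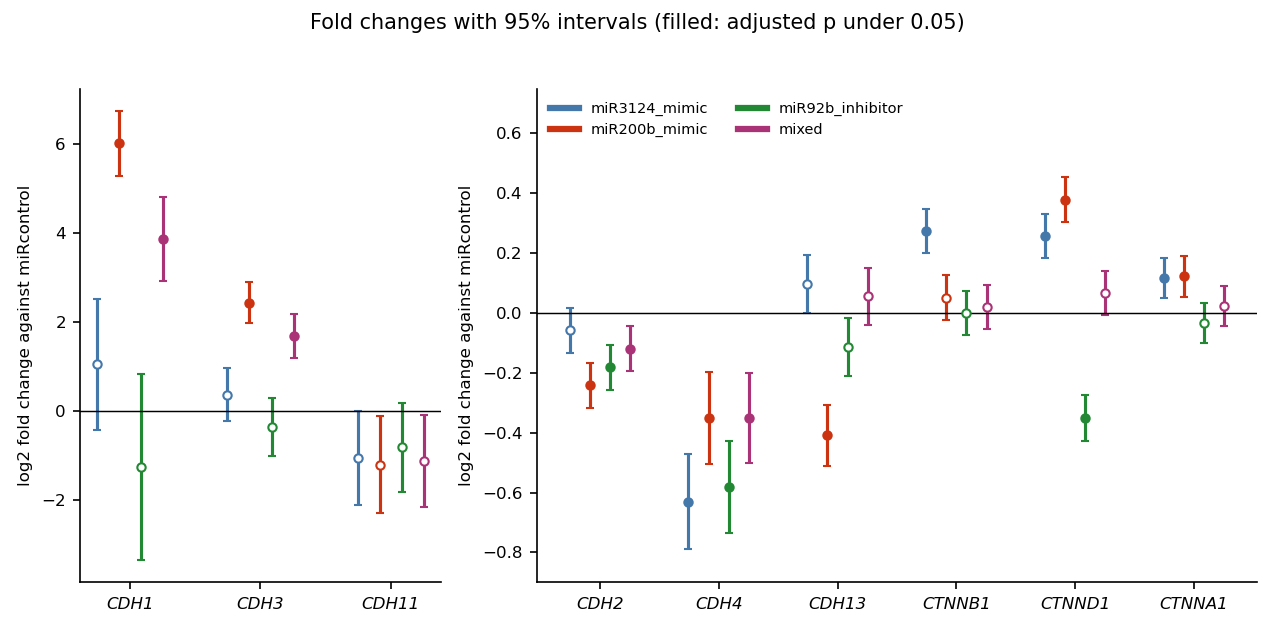
Log2 fold change against miRcontrol (vertical axes, with different scales in the panels) of 9 members in the 4 other groups, with 95% intervals; filled points have an adjusted p under 0.05 and open points do not. CDH1 and CDH3 are the members whose filled points lie above 1, and the fitted value of CDH1 rests on 5 control counts; the other filled points lie between -0.63 and 0.38.

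The number of members that changed is set beside the share of all genes that did. A gene was called at an adjusted p under 0.05, and 9 of the 10 members were among the 14884 genes tested. In miR3124_mimic against miRcontrol, 4 members were called (3 higher, 1 lower), where 51.0% of all genes tested were. In miR200b_mimic the members called were 7 (4 higher, 3 lower), beside 40.6% of all genes. In miR92b_inhibitor they were 3, all lower, beside 35.7%, and in the mixed group 4 (2 higher, 2 lower), beside 42.7%. CDH1 and CDH11 passed the filter through a single set of groups where they were high, and of the other 7 tested members 4, 6, 3 and 3 were called in these comparisons. The median log2 fold change over the tested members was 0.12, 0.05, -0.35 and 0.02, beside medians over all genes of 0.00, -0.01, -0.01 and 0.00, respectively. These medians include CDH1 and CDH11. In miR92b_inhibitor their log2 fold changes, -1.26 and -0.82, rest on few counts and were not called.

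At the criterion used in the study, at least a doubling or halving together with p under 0.05 before adjustment, no member passed in miR3124_mimic (8.81% of all genes did) or in miR92b_inhibitor (2.63%). CDH1, CDH3 and CDH11 passed in miR200b_mimic (5.70% of all genes) and in the mixed group (5.42%), CDH11 in the downward direction with unadjusted p-values of 0.0350 and 0.0375. With the filter set to 10 counts in each library, 1 member passed in each of these groups, because CDH1 and CDH11 were then not tested. CDH1 and CDH11 were tested at all only through the groups where they were high. In miR3124_mimic, where CDH11 had an unadjusted p of 0.0554, 1 member passed without the second library of that group, with no filter, and with only the 2 groups fitted. Whether the number of passing members differs between groups was not tested.

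The mixed group was next compared with each single transfection. The counts of members include CDH1, which passed the filter only through miR200b_mimic and the mixed group. Of the 7 tested members other than CDH1 and CDH11, 5 differed against miR200b_mimic, 5 against miR3124_mimic and 4 against miR92b_inhibitor. Against miR200b_mimic, 6 members differed, beside 38.6% of all genes: CDH1, CDH3, CTNND1 (log2 difference -0.31 ± 0.04, adjusted p = 2.43e-09) and CTNNA1 (-0.10 ± 0.03, adjusted p = 0.0208) were lower in the mixed group, and CDH13 (0.46 ± 0.05, adjusted p = 3.19e-10) and CDH2 (0.12 ± 0.04, adjusted p = 0.0106) were higher. In each case the mixed group lay on the control side of miR200b_mimic. The small differences were not firm: CDH2 did not pass without the second library of either group (adjusted p = 0.0580 and 0.0890), nor CTNNA1 without the first library of either group (adjusted p = 0.0635 and 0.166) or with scaling to library totals only (adjusted p = 0.0722).

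Against miR3124_mimic, 6 members differed, beside 49.1% of all genes. CDH1 (82 against 10 counts, ratio 7.23, interval 3.74 to 15.6), CDH3 (log2 difference 1.31 ± 0.24, adjusted p = 1.29e-05) and CDH4 (0.28 ± 0.08, adjusted p = 0.00411) were higher in the mixed group. The catenins were lower, with -0.25 ± 0.04 for CTNNB1 (adjusted p = 1.68e-07), -0.19 ± 0.04 for CTNND1 (adjusted p = 3.31e-05) and -0.09 ± 0.03 for CTNNA1 (adjusted p = 0.0241). CTNNA1 did not pass with TMM normalization (adjusted p = 0.0662) or without any 1 of the 4 libraries (adjusted p from 0.0534 to 0.200), and CDH4 did not without the first mixed library (adjusted p = 0.0896).

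Against miR92b_inhibitor, 5 members were higher in the mixed group and none lower, beside 19.7% and 19.9% of all genes, 39.6% in either direction. They were CDH1 (82 against 2 counts, ratio 39.6, interval 10.6 to 332), CDH3 (log2 difference 2.04 ± 0.26, adjusted p = 1.38e-08), CTNND1 (0.42 ± 0.04, adjusted p = 1.40e-12), CDH4 (0.23 ± 0.08, adjusted p = 0.0195) and CDH13 (0.17 ± 0.05, adjusted p = 0.00469). CDH4 was not called by DESeq2 (adjusted p = 0.0923), without the first mixed library (adjusted p = 0.249) or without the first miR92b_inhibitor library (adjusted p = 0.153), and CDH13 not without the second library of either group (adjusted p = 0.0688 and 0.110).

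The mimics were also set against each other. In miR200b_mimic against miR3124_mimic, 7 members differed, beside 57.8% of all genes. Of the 7 tested members other than CDH1 and CDH11, 6 differed. CDH1 was 31.8 times as high with the miR-200b-3p mimic (interval 17.1 to 67.1), CDH3 differed by 2.07 ± 0.23 on the log2 scale (adjusted p = 9.74e-11), and CDH4 (0.28, adjusted p = 0.00432) and CTNND1 (0.12, adjusted p = 0.00479) were also higher with it. CDH13 (-0.50, adjusted p = 1.16e-11), CTNNB1 (-0.22, adjusted p = 1.94e-06) and CDH2 (-0.18, adjusted p = 8.21e-05) were lower. CTNNA1, raised against the control by both mimics, differed between them by 0.01 on the log2 scale, with a 95% interval from -0.06 to 0.07.

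Transcription factors that repress CDH1 moved in both directions. Of 10 on the list, 8 were tested. For this list and those that follow, the shares of all genes called higher and lower against miRcontrol were 21.4% and 19.1% in miR200b_mimic, 25.7% and 25.3% in miR3124_mimic, 17.5% and 18.2% in miR92b_inhibitor, and 21.5% and 21.1% in the mixed group. In miR200b_mimic 4 were lower (ZEB1, ZEB2 and, named after their values were seen, TCF3 and TCF4) and 1 was higher (SNAI2), with a list median of -0.23 beside -0.01 over all genes. ZEB2 measured 33.8 and 30.8 normalized CPM in miRcontrol, 6.95 and 6.44 in miR200b_mimic, 45.9 and 47.2 in miR3124_mimic, 39.9 and 37.7 in miR92b_inhibitor, and 10.3 and 10.1 in the mixed group. ZEB1 measured 63.3 and 62.9 CPM in miRcontrol, 25.9 and 25.6 in miR200b_mimic, 59.4 and 56.4 in miR3124_mimic, 70.7 and 74.7 in miR92b_inhibitor, and 29.7 and 28.5 in the mixed group. In the groups where CDH1 was detected above the others, both factors were at their lowest, with no overlap with the remaining groups.

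The log2 fold change of ZEB2 was -2.27 ± 0.11 in miR200b_mimic (adjusted p = 3.61e-23) and -1.66 ± 0.09 in the mixed group (adjusted p = 3.61e-20), and that of ZEB1 was -1.29 ± 0.07 (adjusted p = 3.55e-21) and -1.12 ± 0.06 (adjusted p = 9.67e-20). ZEB2 was higher in the mixed group than in miR200b_mimic, by 0.62 ± 0.13 (adjusted p = 0.000111), whereas ZEB1 differed by 0.18 ± 0.08 (adjusted p = 0.0574). With the miR-3124-5p mimic, ZEB2 rose by 0.53 ± 0.07 (adjusted p = 3.91e-08). With the miR-92b inhibitor, ZEB1 rose by 0.20 (adjusted p = 0.00327) and ZEB2 by 0.26 (adjusted p = 0.00426), calls that were lost for ZEB1 without the second inhibitor library (adjusted p = 0.0777) and for ZEB2 without the first inhibitor library (adjusted p = 0.0621) or the second control library (adjusted p = 0.110).

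SNAI1 and SNAI2 encode Snail and Slug, which bind the same E-box elements. SNAI2 went against the ZEB factors in miR200b_mimic: it measured 23.1 and 23.3 CPM in miRcontrol, 44.3 and 43.1 in miR200b_mimic, 11.2 and 10.2 in miR3124_mimic, 34.0 and 37.1 in miR92b_inhibitor, and 33.8 and 32.8 in the mixed group. Its log2 fold change was 0.91 in miR200b_mimic, -1.12 in miR3124_mimic, 0.61 in miR92b_inhibitor and 0.52 in the mixed group, and all passed (largest adjusted p = 3.56e-07). SNAI1, at 0.458 and 0.716 CPM in miRcontrol, was higher in miR3124_mimic (1.23 and 2.32 CPM, log2 fold change 1.62, adjusted p = 0.00131) and in the mixed group (1.82 and 1.45 CPM, 1.47, adjusted p = 0.00403), without passing when the second miR3124_mimic library (adjusted p = 0.126) or the first miRcontrol library (adjusted p = 0.0733) was left out. Over the list, 3 factors were higher and 3 lower in miR3124_mimic, 4 higher and 0 lower in miR92b_inhibitor, and 2 higher and 3 lower in the mixed group.

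Desmosomes are the other cadherin-based junctions of epithelia. Of 12 desmosomal genes, 7 were tested. In miR200b_mimic 5 were higher (DSG2, DSP, PKP2, PKP3 and PERP) and 1 lower, with a median log2 fold change of 1.10 beside -0.01 over all genes. The exception, PKP1, at 1.26 and 0.657 CPM in miRcontrol and 0.523 and 0.173 in miR200b_mimic, was named after its values were seen. In the mixed group 4 were higher and 0 lower (median 0.71), in miR3124_mimic 1 was higher and 4 were lower, and in miR92b_inhibitor 0 were higher and 5 lower. PKP3, a plaque protein, measured 34.7 and 33.2 CPM in miRcontrol, 150 and 165 in miR200b_mimic (log2 fold change 2.22, adjusted p = 4.91e-32), and 98.8 and 88.7 in the mixed group (1.46, adjusted p = 2.86e-24). The desmosomal cadherin DSG2 rose by 1.37 (adjusted p = 1.13e-30) and 1.15 (adjusted p = 1.10e-27) in the same groups. DSP, for desmoplakin, rose by 1.31 in miR200b_mimic (adjusted p = 9.77e-30), and PKP2 by 1.10 (adjusted p = 8.88e-20). PERP, a membrane protein of desmosomes, fell by 1.19 in miR3124_mimic (adjusted p = 1.47e-23).

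Of 16 further catenins and proteins that bind cadherins, 13 were tested, and 9 were higher and 2 lower in miR200b_mimic (median 0.38 beside -0.01 over all genes). The counts were 3 higher and 6 lower in miR3124_mimic, 1 and 7 in miR92b_inhibitor, and 6 and 4 in the mixed group. JUP, for plakoglobin, the catenin shared by desmosomes and adherens junctions, measured 43.3 and 47.5 CPM in miRcontrol, 101 and 107 in miR200b_mimic (log2 fold change 1.20, adjusted p = 4.20e-22) and 26.1 and 25.7 in miR92b_inhibitor (-0.81, adjusted p = 6.64e-13). CTNNBIP1, an inhibitor of the binding of beta-catenin to TCF factors, measured 12.2 and 12.2 CPM in miRcontrol, 41.1 and 41.9 in miR200b_mimic (1.77, adjusted p = 1.31e-21) and 25.5 and 26.5 in the mixed group (1.10, adjusted p = 1.11e-13). Both genes moved in the same direction as CTNND1 in miR200b_mimic and in miR92b_inhibitor, where the log2 value of CTNNBIP1 was -0.59 (adjusted p = 6.67e-05). In miR3124_mimic, where CTNND1 rose, CTNNBIP1 rose too (0.97, adjusted p = 7.37e-12), but JUP fell (-0.31, adjusted p = 0.000146).

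**Figure D4:**
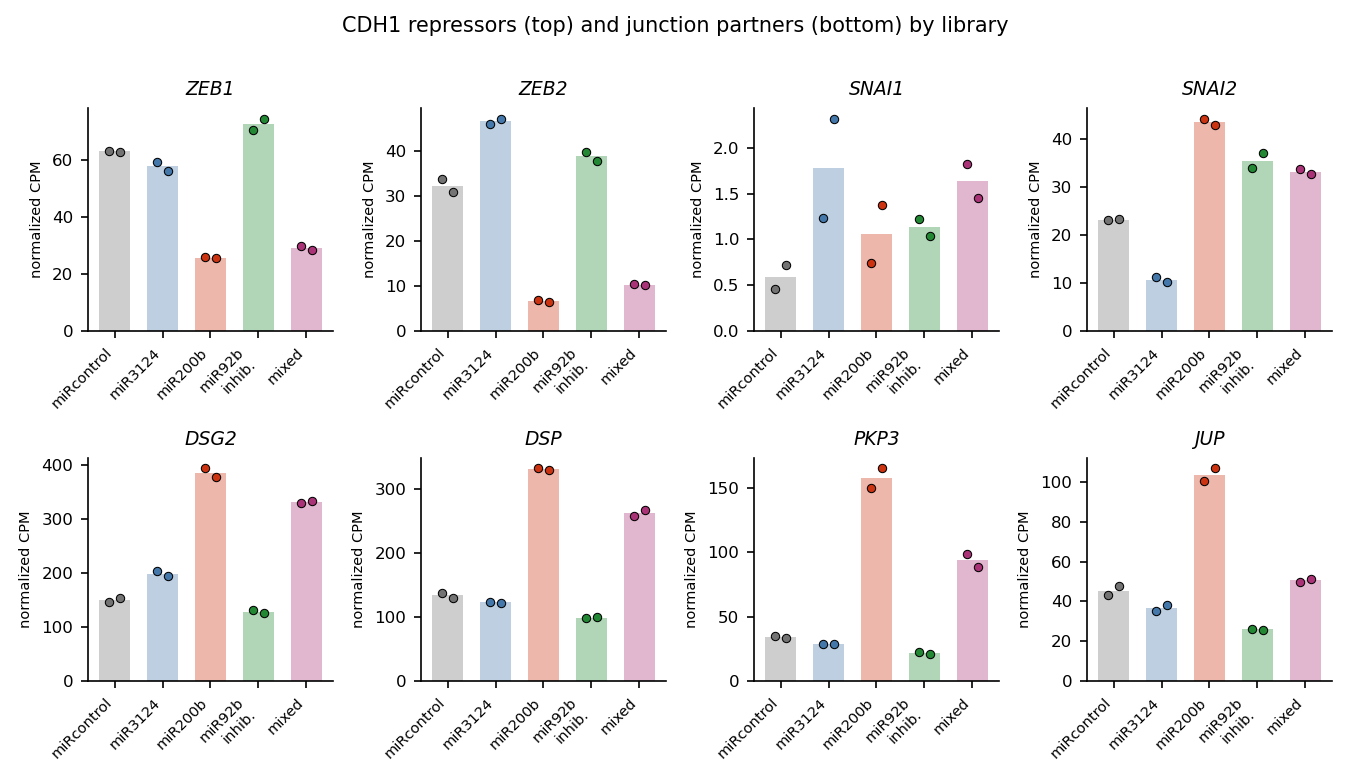
Normalized CPM (vertical axes, starting at 0) of 4 repressors of CDH1 (top) and 4 junction genes (bottom) in the 5 groups, with a point for each library and a bar for the mean of the 2 libraries. ZEB1 and ZEB2 are lowest, and DSG2, DSP and PKP3 highest, in miR200b_mimic and the mixed group, while SNAI2 is highest in miR200b_mimic (44.3 and 43.1 CPM).

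Of 16 genes of the destruction complex and the transcription partners of beta-catenin, 15 were tested, with 5 higher and 4 lower in miR200b_mimic, 2 and 4 in miR3124_mimic, 2 and 3 in miR92b_inhibitor, and 3 and 4 in the mixed group. AXIN2, a scaffold of that complex and a Wnt target, measured 1.32 and 1.61 CPM in miRcontrol and 0.299 and 0.460 in miR200b_mimic (log2 fold change -1.89, adjusted p = 0.00140). AMER1, a scaffold that binds APC, rose by 1.03 in the mixed group (adjusted p = 5.07e-09). Of 15 Wnt target genes, 11 were tested, with 3 higher and 3 lower in miR200b_mimic, 2 and 4 in miR3124_mimic, 4 and 1 in miR92b_inhibitor, and 3 and 2 in the mixed group. DKK1, a secreted Wnt antagonist, measured 225 and 205 CPM in miRcontrol and fell by 1.77 in miR3124_mimic (adjusted p = 8.55e-32), 1.20 in miR200b_mimic (adjusted p = 7.60e-26) and 1.29 in the mixed group (adjusted p = 2.69e-27). RNF43, a ubiquitin ligase for Wnt receptors, rose by 1.38 in miR200b_mimic (adjusted p = 4.01e-07) and 1.51 in the mixed group (adjusted p = 2.40e-08). The median log2 fold change of the Wnt targets was 0.21 with the miR-92b inhibitor, beside -0.01 over all genes, and 0.19 in the mixed group, beside 0.00. It was 0.06 with the miR-200b-3p mimic, beside -0.01, and -0.16 with the miR-3124-5p mimic, beside 0.00. CTNNB1 was called higher only with the miR-3124-5p mimic. Whether the level of CTNNB1 RNA bears on the Wnt targets was not tested.

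All 11 genes for cadherin cleavage, endocytosis and turnover were tested. In miR200b_mimic 4 were higher and 1 lower, in miR3124_mimic 4 and 6, in miR92b_inhibitor 0 and 3, and in the mixed group 2 and 3, and none reached a fold change of 2 in any of these groups. Of 16 further cadherins only CDH5 and CDH24 were tested. CDH5, the VE-cadherin gene of endothelium, had 1 count in each miRcontrol library and measured 4.03 and 2.49 CPM in miR3124_mimic (adjusted p = 2.53e-10) and 0.276 and 0.538 in the mixed group (adjusted p = 0.0177). It had 0 to 10 counts in the libraries outside miR3124_mimic and passed the filter on low counts only through that group. CDH24 measured 46.1 and 45.2 CPM in miRcontrol and was lower in miR200b_mimic (log2 fold change -0.32, adjusted p = 0.000313), in miR92b_inhibitor (-0.34, adjusted p = 0.000158) and in the mixed group (-0.43, adjusted p = 3.26e-06). These 2 genes were named after their values were seen.

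The genes most like CDH1 and CDH2 over the 10 libraries were sought among 12899 other genes with a mean of at least 1 CPM. The measure was Pearson's r of log2(CPM + 0.5), a description of 10 points that share 5 groups. Those nearest to CDH1 were SCEL (r = 0.996), MAP7 (0.992), DHX32 (0.990), TRAFD1 (0.989) and MAP2K4 (0.988). SCEL, for sciellin of the epithelial cornified envelope, measured 0.172 and 0.119 CPM in miRcontrol, 8.15 and 7.08 in miR200b_mimic, and 2.76 and 2.21 in the mixed group. MAP7, a microtubule-binding protein of epithelia, measured 0.343 and 0.418, 12.0 and 12.1, and 3.54 and 3.17 CPM, respectively. Both had the order of CDH1, near 0 in miRcontrol, highest in miR200b_mimic and intermediate in the mixed group, which follows from how they were picked. DHX32, TRAFD1 and MAP2K4 started from higher means in miRcontrol, 45.7, 29.6 and 61.5 CPM, respectively. In miR200b_mimic their means were 72.5, 47.0 and 98.4 CPM. Those nearest to CDH2 were PBX2 (r = 0.948), PGAM1 (0.943), MYH10 (0.933), CLASP1 (0.927) and MACROD1 (0.919). PBX2 lay close to the limit of 1 CPM, with 1.60 and 1.49 in miRcontrol and 1.05 and 0.978 in miR200b_mimic. It was not called in that comparison (adjusted p = 0.195), so its place at the top rests on few counts. MYH10, for non-muscle myosin IIB, measured 279 and 282 CPM in miRcontrol and 209 and 209 in miR200b_mimic.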

How the data were processed

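RNA of BEAS2B cells was sequenced as poly(A) mRNA libraries (directional kit, paired-end reads). Per the labels and the methods, the authors trimmed the reads, mapped them with TopHat to GRCh38 and counted them per gene. The deposited values are raw read counts, 1 file per library with 58173 rows. The counting tool, its annotation and its use of strand are not given in the sources used here, so reads of antisense partners cannot be told apart. Rows repeating a symbol (5771) were summed.

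The counts of all 10 libraries were fitted together with edgeR 4.0.16 (R 4.3.3, limma 3.58.1): genes kept by filterByExpr, RLE factors, and quasi-likelihood tests with no covariate, with Benjamini-Hochberg adjustment over 14884 genes (common dispersion 0.000751). The call was an adjusted p under 0.05. Levels are counts over effective library size. The fit was tested on simulated data. Ratios of low counts carry exact binomial intervals (95%). Named genes were all members, up to 4 genes per list and comparison with miRcontrol that passed a fold change of 2, an adjusted p of 0.05 and a mean of 1 CPM, ZEB1 and ZEB2, and the 5 genes most like CDH1 and CDH2. The members and lists were chosen with earlier results of these data known. Alternatives were TMM, scaling to library totals, DESeq2 1.42.0 (Wald), fits of only the groups compared, no filter, a filter of 10 counts in each library, the replicate block and omission of single libraries. Exon lengths, 3′UTRs and positions came from GENCODE v29, and miRNAs from RefSeq. 1 word match is not reported here.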

Additional observations from a re-analysis of the deposited data

How the results depend on the processing

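Under the alternatives, the number of members called stayed within 1.5 times of the value given in all 8 comparisons. At the fold criterion, 1 member in place of 0 passed in miR3124_mimic with only the groups compared, with no filter, and without the second miR3124_mimic library (0 to 1 over the libraries left out), and 1 in place of 3 passed in miR200b_mimic and in the mixed group with at least 10 counts in every library, since CDH1 and CDH11 were then not tested. With the length of the principal coding transcript, chosen after seeing the data, the share of CDH1 was 2.31% in miR200b_mimic, 0.0124% in miR92b_inhibitor and 0.451% in the mixed group, and that of CDH2 was 56.9% in miRcontrol, 57.3% in miR200b_mimic, 55.4% in miR3124_mimic, 56.6% in miR92b_inhibitor and 54.1% in the mixed group. No called log2 fold change changed its sign. Values near 0 that were not called did: CTNNB1 in miR92b_inhibitor against miRcontrol (0.0090 with TMM, 0.0069 with library totals, 0.0044 with only the groups compared, 0.00055 with no filter), CTNNA1 in miR200b_mimic against miR3124_mimic (-0.031 with library totals, -0.0061 with only the groups compared, -0.018 with at least 10 counts in every library), and CDH4 in the mixed group against miR200b_mimic (-0.0031 with no filter, -0.00085 with the replicate block, -0.015 with the first CDH4 row only, an alternative chosen after seeing the data). Without 1 library, the log2 values ran from -0.91 to 0.50 for CDH11 in miR200b_mimic against miR3124_mimic, from -0.34 to 0.84 for CDH11 in the mixed group against miR200b_mimic and from -0.46 to 0.57 against miR3124_mimic, from -0.099 to 0.020 for CDH13 in the mixed group against miR3124_mimic, from -0.073 to 0.069 for CDH4 in the mixed group against miR200b_mimic, from -0.067 to 0.0030 for CTNNA1 in miR92b_inhibitor and from -0.0012 to 0.049 in the mixed group against miRcontrol, and from -0.053 to 0.054 for CTNNB1 in miR92b_inhibitor against miRcontrol and from -0.034 to 0.074 in the mixed group against miR92b_inhibitor. The cause of these shifts was not tested. Of the values for the members, 20 lost and 4 gained a call, and 730 kept their sign and their side of the threshold. Replicate numbers did not pair the libraries (correlation of deviations from -0.0745 to 0.0468 over 10441 genes), and with the replicate block the same number of members was called in each comparison, for example 7 in miR200b_mimic against miRcontrol. Depth limited CDH1 outside miR200b_mimic and the mixed group, and CDH6 and CDH11 throughout.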

Other observations

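Epithelial markers outside the junction lists were among the genes that accompanied CDH1. Of 17 epithelial markers 10 were tested, and 8 were higher and 0 lower in miR200b_mimic, with 7 higher and 2 lower in the mixed group, 2 and 2 in miR3124_mimic, and 0 and 3 in miR92b_inhibitor. EPCAM, an epithelial adhesion molecule, had 8 and 2 counts in miRcontrol and measured 10.2 and 10.1 CPM in miR200b_mimic and 5.70 and 5.27 in the mixed group. CRB3, a polarity protein, had 1 count in each miRcontrol library and measured 7.03 and 6.33 CPM in miR200b_mimic and 2.82 and 1.83 in the mixed group. ST14, for the protease matriptase, measured 0.401 and 0.298, 6.80 and 7.88, and 2.49 and 3.28 CPM in these groups. Like CDH1, these genes passed the filter on low counts only through the miR200b_mimic and mixed libraries. That they were tested, and counted above as higher, depended on the groups where they were high. EPCAM, CRB3 and ST14 shared the first 2 places with CDH1, miR200b_mimic above the mixed group and both above the rest, while KRT19 did not: it measured 8.47 and 7.94 CPM in miRcontrol, 13.8 and 15.1 in miR200b_mimic, 0.615 and 0.905 in miR3124_mimic, and 2.49 and 2.74 in the mixed group.

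Of 10 mesenchymal markers 6 were tested, and 2 were higher and 4 lower in miR200b_mimic, 4 and 1 in miR3124_mimic, 1 and 2 in miR92b_inhibitor, and 3 and 3 in the mixed group. VIM, for vimentin, fell by 2.23 on the log2 scale in miR3124_mimic (adjusted p = 2.77e-42), by 0.35 in miR200b_mimic (adjusted p = 1.19e-12) and by 0.48 in the mixed group (adjusted p = 4.64e-17), and it rose by 0.16 in miR92b_inhibitor (adjusted p = 0.000109). FN1, for fibronectin, fell by 1.21 in miR200b_mimic (adjusted p = 4.58e-31). PDGFRB (7.61 and 7.64 CPM in miRcontrol, 3.14 and 2.93 in miR200b_mimic) and THY1 (215 and 207, 103 and 106) also fell there. COL1A1 went the other way in miR200b_mimic, with a log2 fold change of 1.62 (adjusted p = 2.92e-19). So did SPARC, at 649 and 653 CPM in miRcontrol and 1090 and 1051 in miR200b_mimic. Thus the group with the largest fall of VIM, miR3124_mimic, was not among the groups in which CDH1 was called. VIM was the 1 mesenchymal marker called lower in miR3124_mimic, and 4 were called higher. Among the latter, SPARC rose from 649 and 653 CPM in miRcontrol to 1540 and 1522, and PDGFRB from 7.61 and 7.64 to 30.9 and 28.0. Of the leukocyte markers only CD14 was tested, and it measured 0.801 and 1.43 CPM in miRcontrol and 12.7 and 12.4 in miR3124_mimic. Of the neural markers only SYP was tested, at 0 counts in both mixed libraries and 11 and 5 counts in miRcontrol, a gene named after its values were seen.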
